A study of Mus musculus with 20 samples.

Results

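The genes described here are 10 members of the JAK-STAT pathway in injured sensory ganglia: the transcription factors Stat3, Stat5a, Stat5b and Stat6, the kinases Jak1, Jak2 and Tyk2, and the feedback inhibitors Socs3, Socs2 and Cish. They were taken by symbol from the Ensembl identifiers of the deposited count table, which lists 78258 genes. All 10 were found, and all 10 were among the 28564 genes that passed the filter on low counts. In the ganglia 1 day after nerve transection, 7 of them were higher than on the uninjured side in both genotypes (13.8% of all tested genes were called higher in control and 16.2% in knockout mice), led by Socs3 (3.16-fold in control and 3.61-fold in knockout mice) and Cish (2.45-fold and 2.60-fold). Between the genotypes edgeR called no member at an adjusted p under 0.05, where it called 21 of 28564 genes on the uninjured side. DESeq2 called 1 member, Stat3, among 1041 genes on that side.

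RNA came from the dorsal root ganglia of lumbar levels 4 to 6, which hold the cell bodies of sensory neurons with their satellite glia, in 10 male mice. The 5 conditional knockout (cKO) mice were Ahr fl/fl with Thy1CRE-ERT2/EYFP, a tamoxifen-inducible Cre recombinase and a yellow fluorescent protein driven by the Thy1 promoter, which is active in neurons. The 5 control mice were Ahr f/f or f/+, so some may carry a single floxed allele, and the library names mark them as FF. The sample titles instead call them wildtype. Ahr encodes the aryl hydrocarbon receptor, a ligand-activated transcription factor. All mice of both genotypes received tamoxifen at 100 mg/kg by intraperitoneal injection once a day for 5 days at 17 weeks of age. The sciatic nerve was cut on 1 side 4 weeks later, and ganglia of the lesioned (ipsilateral) and the opposite (contralateral) side were taken after 1 day, between zeitgeber times 2 and 4. Each mouse gave 1 library per side, making 4 groups of 5 libraries. The contralateral ganglia came from the same lesioned animals, so they are an uninjured side and not ganglia of unlesioned mice. One label field names a spinal cord injury, whereas the protocol describes sciatic transection, which was followed. The library names mark Cre in the cKO mice alone. The genotype comparisons therefore cannot tell loss of Ahr apart from the presence of Cre and the fluorescent protein. The comparisons ask how RNA levels in the ganglia differ with injury and with the cKO genotype.

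Janus kinases (JAK1, JAK2 and TYK2 among them) sit on the intracellular tails of cytokine receptors and phosphorylate each other, the receptor and STAT proteins when a cytokine binds. Phosphorylated STATs pair, enter the nucleus and switch on genes, among them those of the SOCS family, whose proteins (SOCS3, SOCS2 and CISH) bind receptors or kinases and damp the signal. In sensory neurons, cytokines of the gp130 family such as IL-6, LIF and CNTF act through STAT3, and STAT3 activation after peripheral axotomy is known for its part in axon regrowth, which SOCS3 restrains. STAT activity lies in phosphorylation, which RNA levels do not show.

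STAT dimers bind a palindrome whose arms are TTC and GAA. Promoter windows were searched because 7 members rose together. The RefSeq promoter table used here gave windows for 9 members, and Socs2 was not searched (11 windows of 300 bases on GRCm38.p6, from 250 bases before the start to 50 after it). The letters TTCNNNGAA, which read the same on both strands, were found for Socs3 and Cish and in no window of the other 7. Of all 32851 windows in the table, 8.3% hold them. In the Socs3 window (chr11:117969367-117969616, minus strand, the 250 bases before the start), the match begins 154 bases before the start and is in capitals:
Socs3: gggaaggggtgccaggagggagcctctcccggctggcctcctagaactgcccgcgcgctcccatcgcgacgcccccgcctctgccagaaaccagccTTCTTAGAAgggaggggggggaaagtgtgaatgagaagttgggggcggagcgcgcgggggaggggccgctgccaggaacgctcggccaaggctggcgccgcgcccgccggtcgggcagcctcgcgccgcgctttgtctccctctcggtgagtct
In the Cish window (plus strand), a pair of matches begins at bases 1 and 12 from the start, a count of 2 that 0.457% of all windows reach. The stretch shown is chr9:107296657-107296680, with both matches in capitals:
Cish: ttTTCCTGGAAagTTCTTGGAAat
Other spellings were searched too (TTCCNGGAA, TTCNNGGAA and TTCCNNGAA, each found for Cish alone among the members, and TTCNNNNGAA, found for none; 1.15%, 2.96%, 3.03% and 6.95% of all windows hold them). The spelling and the window were chosen after several had been looked at. A match is a description of the letters, and no binding was measured.

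Libraries held 76.2 to 118.5 M counts (M, mega), and the lowest count of any member in a library was 514, for Cish. Levels are CPM, counts scaled to a common library total with TMM factors, which correct for a few abundant genes taking a different share of a library. Sensory neuron markers (12 genes such as Isl1, Prph and Scn10a) summed to between 10209.7 and 12139 CPM in the 20 libraries, and none was at 0 throughout a group. On the contralateral side the Ahr level was 24.2 ± 2.10 CPM for control mice (SD, n = 5) and 20.4 ± 0.536 CPM for cKO mice, with no overlap and an adjusted p of 0.103. Its ipsilateral ranges overlapped (30.2 to 38.1 CPM for control, 28.9 to 36.8 CPM for cKO, adjusted p 1.00), and the interaction did not pass the test (adjusted p 0.600). These gene counts alone do not establish that Ahr was deleted in the cKO mice. Atf3, a transcription factor induced in axotomised neurons, was higher on the ipsilateral side by 5.23 on the log2 scale in control and 5.50 in cKO mice. Whole ganglia were sequenced, and a change in the number of cells of a type cannot be told apart from a change in RNA per cell.

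Per kilobase of merged exon, the members covered a wide range of levels on the uninjured side. In control contralateral libraries Jak1 was highest at 67.5 CPM per kb, followed by Stat3 at 43.4, Stat6 at 27.9, Stat5b at 11.1 and Jak2 at 6.36. Below these were Socs2 at 3.89, Socs3 at 3.44, Tyk2 at 2.2, Cish at 1.25 and Stat5a at 1.19 CPM per kb. Ranges of the 5 libraries overlapped for Socs2 and Socs3 and for Cish and Stat5a, and those of Socs3 and Tyk2 met at 2.53. The other neighbours in this order did not overlap. The lengths join the exons of all annotated transcripts of a gene in GENCODE M21, which can exceed the transcript expressed. Other lengths could change the order, and this was not tested. On the ipsilateral side of control mice Socs3 averaged 10.9 CPM per kb and Jak2 8.85, and their libraries overlapped.

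**Figure D1:**
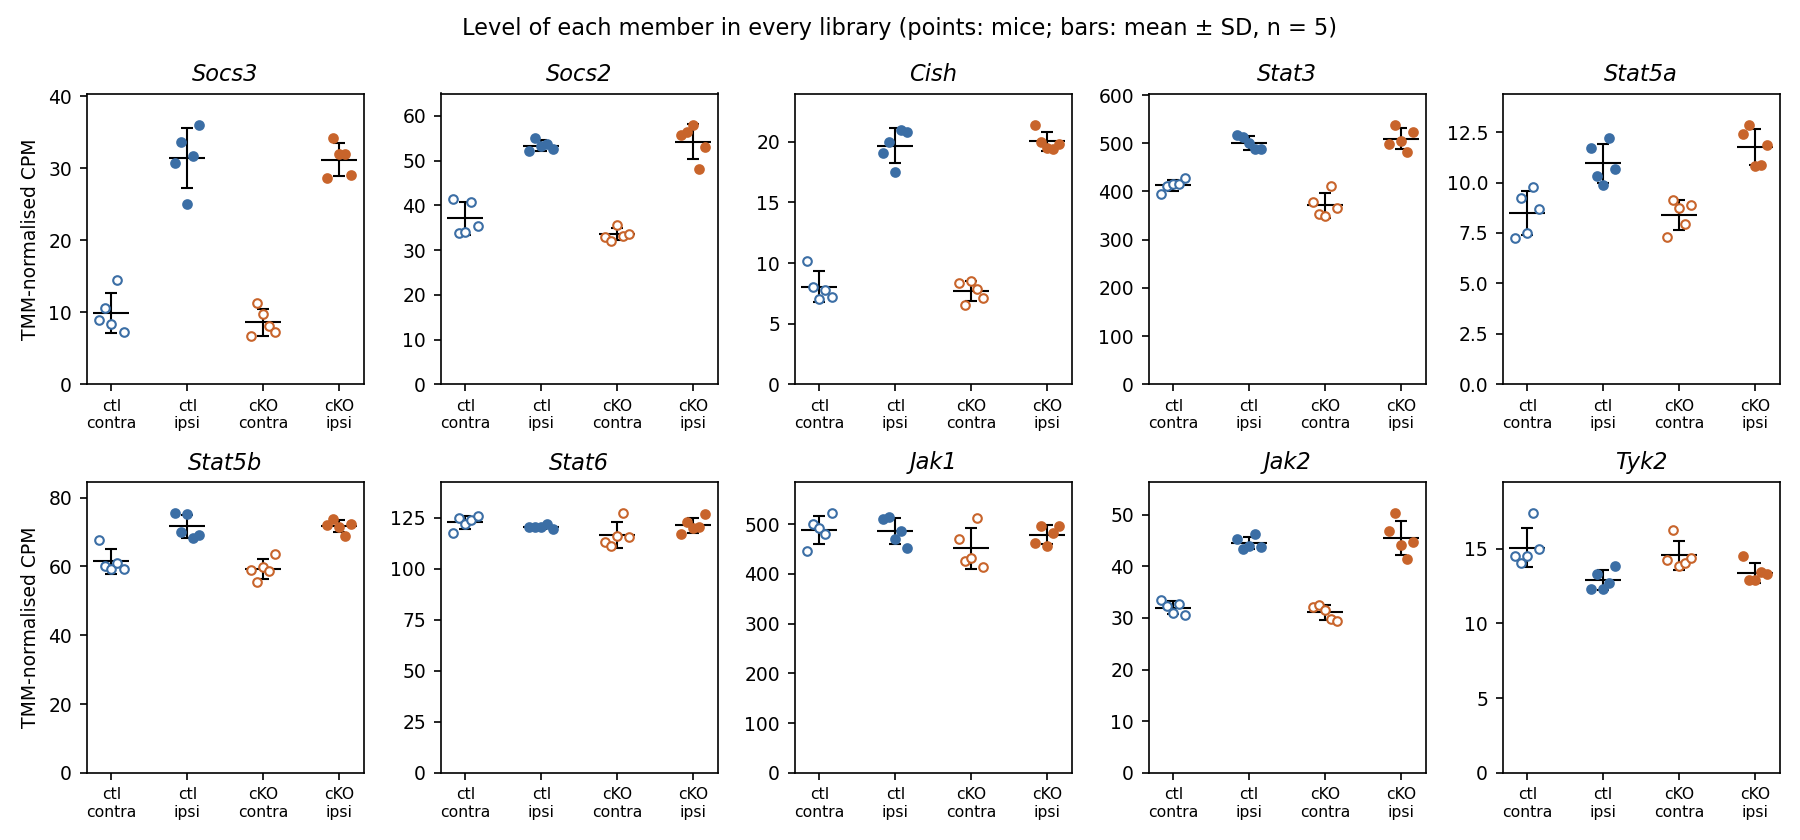
TMM-normalised CPM of each member (vertical axes, linear and starting at 0) in control (blue) and cKO (orange) libraries of the contralateral side (open points) and the ipsilateral side (filled points), with the mean and SD of 5 mice per group. Socs3, Socs2, Cish, Stat3, Stat5a, Stat5b and Jak2 are higher in every ipsilateral library than in any contralateral library of the same genotype, while Stat6 and Jak1 overlap between the sides.

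Ipsilateral and contralateral ganglia were compared in each genotype with edgeR's quasi-likelihood test, with Benjamini-Hochberg adjustment over all tested genes. The test called 7 members higher and 1 lower in control mice, beside 13.8% and 16.0% of all tested genes. In cKO mice 7 were called higher and 0 lower, where the shares of all genes were 16.2% and 15.1%. The 7 higher members were the same in both genotypes. The median log2 fold change of the 10 members was 0.323 in control and 0.472 in cKO mice, beside -0.00472 and -0.0296 over all tested genes. In control mice the called members were also those whose libraries did not overlap between the sides, 8 of 10, which held for 23.6% of all genes. In cKO mice it was 7 of 10, where 20.2% of all genes did not overlap.

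All 3 feedback inhibitors rose in both genotypes, and 2 of them had the highest fold changes of the members. Socs3, which binds gp130 and JAK proteins, was at 8.98, 10.5, 8.41, 14.4 and 7.32 CPM in the control contralateral libraries (mice H62, H63, H65, H96 and H97) and at 30.7, 33.7, 25.0, 31.6 and 36.0 CPM in the ipsilateral libraries of the same mice. In cKO mice (H61, H64, H95, H99 and H100) Socs3 was at 6.70, 11.3, 9.75, 8.04 and 7.31 CPM contralaterally and at 28.6, 34.1, 31.9, 32.0 and 29.1 CPM ipsilaterally. Every ipsilateral library was above every contralateral one, and the highest contralateral library, that of H96, was still well under the lowest ipsilateral library, that of H65. The log2 fold change was 1.66 ± 0.166 (SE) in control mice (adjusted p 4.06e-07) and 1.85 ± 0.168 in cKO mice (adjusted p 9.26e-08).

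Cish, an inhibitor induced by STAT5, was at 10.2, 8.03, 7.02, 7.82 and 7.19 CPM in control contralateral libraries and at 19.1, 20.01, 17.5, 21.0 and 20.9 CPM in control ipsilateral libraries, in the same order of mice. In cKO mice it was at 8.39, 6.52, 8.56, 7.88 and 7.14 CPM contralaterally and at 21.4, 20.02, 19.5, 19.4 and 19.8 CPM ipsilaterally. The sides did not overlap, and the ipsilateral libraries of cKO mice lay within 2 CPM of each other. Its log2 fold change was 1.29 ± 0.0882 (SE) in control mice (adjusted p 4.11e-10) and 1.38 ± 0.0885 in cKO mice (adjusted p 1.22e-10). In the GENCODE M21 annotation 7.46% of the exon length of Cish lies opposite Gm17041 and 4.07% opposite Gm17040. Whether counting used strand is not given in the sources used here, so reads from these neighbours cannot be told apart.

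Socs2, an inhibitor of growth hormone signalling, rose less. It was at 41.4, 33.9, 34.0, 40.7 and 35.4 CPM contralaterally and at 52.1, 55.0, 53.3, 53.8 and 52.6 CPM ipsilaterally in control mice. The corresponding cKO libraries held 33.0, 32.1, 35.7, 33.2 and 33.5 CPM and 55.7, 56.4, 58.0, 48.2 and 53.1 CPM. Again the sides did not overlap in either genotype. The difference was 1.44-fold in control (adjusted p 3.51e-07) and 1.62-fold in cKO mice (adjusted p 4.80e-09).

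Of the 4 STAT factors, 3 rose in both genotypes and Stat6 did not pass the test in either with all mice kept. Stat3, the main STAT downstream of gp130, was at 395, 412, 416, 416 and 427 CPM in control contralateral libraries and at 518, 512, 500.2, 488 and 487 CPM in control ipsilateral libraries. In cKO mice it was at 378, 353, 348, 412 and 365 CPM contralaterally and at 499, 539, 506, 483 and 523 CPM ipsilaterally. The ipsilateral libraries were all higher, by 21.3% on average in control mice (log2 fold change 0.278 ± 0.0407 SE, adjusted p 1.86e-05) and by 37.3% in cKO mice (0.458 ± 0.0407, adjusted p 1.98e-08). Stat3 was thus raised by a small factor from a high level, whereas Socs3 was raised by a large factor from a low one.

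Stat5a and Stat5b, close paralogs that mediate growth hormone, prolactin and interleukin signals, rose in both genotypes. Stat5a ranged from 7.26 to 9.79 CPM contralaterally and from 9.86 to 12.2 CPM ipsilaterally in control mice, and from 7.30 to 9.11 and 10.8 to 12.9 CPM in cKO mice. Its log2 fold changes were 0.367 ± 0.0853 (SE, adjusted p 0.00220) and 0.487 ± 0.0853 (adjusted p 0.000144). In control mice its contralateral and ipsilateral ranges nearly touched. Stat5b ranged from 59.2 to 67.7 CPM contralaterally and from 68.3 to 75.5 CPM ipsilaterally in control mice, and from 55.3 to 63.8 and 68.9 to 73.7 CPM in cKO mice. It was higher by 16.5% (adjusted p 0.000304) and by 20.9% (adjusted p 2.78e-05). The paralogs share few long stretches: 2.21% of the 150-base windows in Stat5a transcripts also occur in Stat5b transcripts, and 3.16% of those of Stat5b occur in Stat5a. At 50 bases the shares are 8.21% and 11%, and reads from these stretches could be assigned to either gene.

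Stat6, which acts downstream of IL-4 and IL-13, was nearly level across the libraries. It ranged from 118 to 126 CPM contralaterally and from 119 to 122 CPM ipsilaterally in control mice (log2 fold change -0.0263, 95% interval -0.0923 to 0.0397). In cKO mice it ranged from 111 to 127 and from 117 to 127 CPM (0.0574, interval -0.00866 to 0.123). The adjusted p-values were 0.599 and 0.184. Without mouse H99 the cKO value was 0.0982 with an adjusted p of 0.00943, past the threshold.

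Of the 3 kinases, with all mice kept, Jak2 was called higher in both genotypes, Jak1 was called in neither, and Tyk2 was called lower in control mice. Jak2, the kinase of growth hormone, erythropoietin and many cytokine receptors, was at 33.4, 32.4, 31.0, 32.7 and 30.6 CPM contralaterally and at 45.3, 43.4, 43.9, 46.3 and 43.7 CPM ipsilaterally in control mice. In cKO mice its values were 32.2, 32.5, 31.5, 29.8 and 29.4 CPM and 46.9, 50.3, 44.1, 41.3 and 44.7 CPM. The groups were tight and far apart, with log2 fold changes of 0.476 ± 0.0444 (SE, adjusted p 4.81e-08) in control and 0.549 ± 0.0444 (adjusted p 4.54e-09) in cKO mice. Jak1, which pairs with gp130 and with interferon and interleukin receptors, did not pass the test. It ranged from 447 to 522 CPM contralaterally and from 451 to 514 CPM ipsilaterally in control mice, and from 414 to 513 and 456 to 497 CPM in cKO mice. The 95% intervals of its log2 fold change were -0.118 to 0.107 in control and -0.0266 to 0.199 in cKO mice. Without H99 the Jak1 value in cKO mice went from 0.0861 to 0.138, with an adjusted p of 0.0481.

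Tyk2, a kinase of type I interferon and IL-12 receptors, was the only member called lower, and only in control mice. Its control libraries held 14.5, 14.0, 14.5, 17.4 and 14.96 CPM contralaterally and 12.3, 13.3, 12.3, 12.7 and 13.8 CPM ipsilaterally. In cKO mice the values were 14.3, 16.2, 13.8, 14.1 and 14.4 CPM contralaterally and 14.5, 12.9, 12.9, 13.4 and 13.3 CPM ipsilaterally. The control sides were separated by a narrow gap, while the cKO sides overlapped through the ipsilateral library of H61. The log2 fold change was -0.228 in control mice (adjusted p 0.00485) and -0.118 in cKO mice (adjusted p 0.135), and the difference between these responses did not pass the test (adjusted p 0.661). Without mouse H96, whose contralateral library was highest, the control value was -0.157 with an adjusted p of 0.0517. With a mouse left out the cKO value ran from -0.156 (without H61) to -0.0622 (without H64), with adjusted p-values of 0.0834 to 0.516. In GENCODE M21, 8.07% of the exon length of Tyk2 lies opposite the antisense gene 1700084C06Rik, whose reads cannot be told apart where strand was not used.

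**Figure D2:**
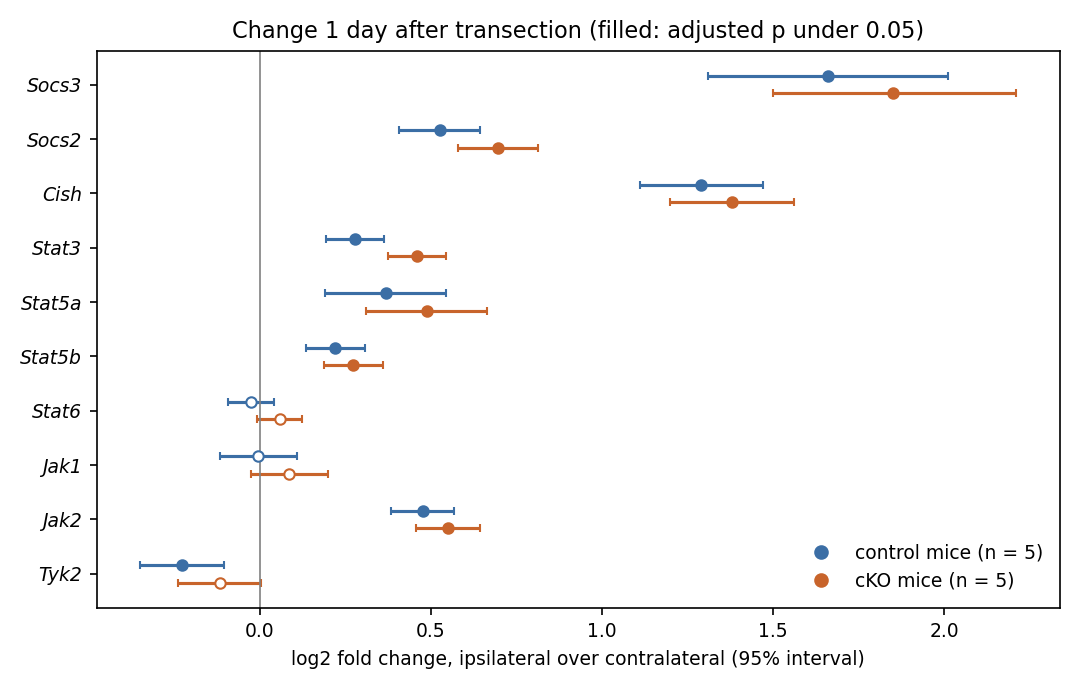
Log2 fold change of each member, ipsilateral over contralateral (horizontal axis), in control (blue) and cKO (orange) mice, 5 mice each, with 95% intervals from the edgeR fit and filled points where the adjusted p was under 0.05. The feedback inhibitors Socs3 and Cish lie between 1.29 and 1.85, and Stat6 and Jak1 have intervals that include 0 in both genotypes.

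Some markers of other cell types were called after the lesion. Satellite glia markers (6 genes, 3 called higher in control and 2 in cKO mice, 0 lower) summed to between 1864 and 2041 CPM contralaterally and between 2079 and 2363 CPM ipsilaterally in control mice, without overlap. In cKO mice the satellite glia sums overlapped, from 1824 to 2214 and from 1999 to 2197 CPM. Macrophage markers (13 genes, 3 called higher in control and 0 in cKO mice) summed to between 105 and 180.5 CPM and between 122 and 221 CPM in control mice, and to between 104 and 261 and between 152 and 253 CPM in cKO mice. Endothelial markers (7 genes, 3 called higher in control and 0 in cKO mice) summed to between 90.3 and 130.1 CPM contralaterally and between 109.6 and 164 CPM ipsilaterally in control mice. Their sums in cKO mice ran from 106 to 157 and from 121 to 148 CPM. Of the 6 fibroblast markers 1 was called lower in cKO mice. In control mice estimates were positive for 13 of 13 macrophage (median log2 0.503) and 7 of 7 neutrophil markers (0.569). So were 6 of 6 fibroblast (0.315) and 7 of 7 endothelial estimates (0.397). The cKO counts were 10 of 13 (0.197), 1 of 7 (-0.120), 1 of 6 (-0.483) and 5 of 7 (0.0831). Over all tested genes 49.2% of estimates were positive in control and 44.9% in cKO mice. Of 10 lymphocyte markers only 2 were positive in each genotype (medians -0.245 in control and -0.340 in cKO mice). Schwann cell markers gave 5 of 8 in control and 4 of 8 in cKO mice, satellite glia 5 of 6 and 4 of 6, and sensory neurons 5 of 12 and 3 of 12. Erythroid markers gave 4 of 5 in control and 0 of 5 in cKO mice. Skeletal muscle gave 6 of 8 and 0 of 8, with sums of up to 687 CPM (H65, ipsilateral) and 1832 CPM (H100, contralateral). Of the 12 sensory neuron markers, 4 were called lower in control and 2 in cKO mice, where 16.0% and 15.1% of all genes were called lower and 13.8% and 16.2% higher. No marker of these lists was at 0 in every library of a group. The part of these cell types in the rise of the 7 members was not tested.

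Each mouse also gives its own response, the log2 CPM of its ipsilateral library minus that of its contralateral library. Socs3, Socs2, Cish, Stat3, Stat5a, Stat5b and Jak2 were higher ipsilaterally in 5 of 5 control and 5 of 5 cKO mice. Jak2 varied least among these in control mice, with responses of 0.422 to 0.514, and Socs3 varied most, from 1.13 in H96 to 2.30 in H97. Tyk2 was lower in 5 of 5 control and 4 of 5 cKO mice. Stat6 responses were positive in 1 of 5 control and 4 of 5 cKO mice, and those of Jak1 in 3 of 5 of each genotype. The response of mouse H99 was the lowest among cKO mice for Stat3 (0.229), Stat6, Jak1, Jak2 and Socs2.

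**Figure D3:**
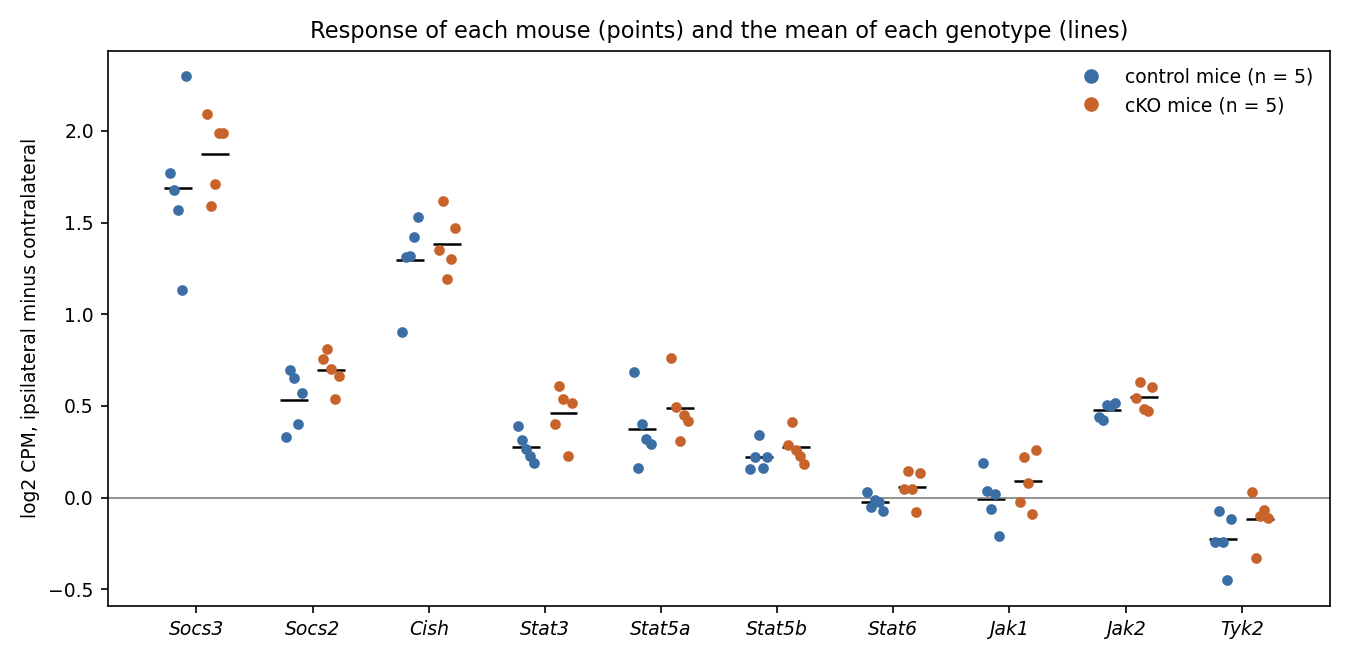
Response of each mouse (points), as log2 CPM of the ipsilateral minus the contralateral library, with the mean of 5 control mice (blue) and 5 cKO mice (orange) as lines. All points of Socs3, Socs2, Cish, Stat3, Stat5a, Stat5b and Jak2 lie above 0, and the points of the genotypes overlap for each member.

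Genotypes were compared on each side. On the contralateral side edgeR called 0 of 10 members, while 0.0735% of all genes were called. At an unadjusted p under 0.05 there were 4 of 10 members and 5006 of 28564 genes. DESeq2 called 1 member there among 1041 genes, and limma-voom called 0 members among 17 genes. All 10 estimates were lower in cKO libraries, where 45.8% of all genes had a positive estimate, and the median was -0.0694 against -0.0130 over all genes. Every member overlapped between the genotypes on this side, and 1.52% of all genes did not. On the ipsilateral side edgeR, DESeq2 and limma-voom called 0 members, 0 had an unadjusted p under 0.05 (674 of 28564 genes did), and edgeR called 0.00700% of all genes. The members overlapped there as well, and 0.599% of all genes did not. Ipsilateral means of Socs3 were 31.4 ± 4.14 CPM in control and 31.1 ± 2.29 CPM in cKO mice (SD, n = 5), a log2 difference whose 95% interval runs from -0.350 to 0.325.

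Stat3 had the lowest p among the members in the contralateral comparison. Its mean was 413 ± 11.5 CPM for control and 371 ± 25.5 CPM for cKO mice (SD, n = 5), which differ by -10.2% (log2 -0.155, 95% interval -0.239 to -0.0698, adjusted p 0.103). The cKO libraries of H61, H64, H95 and H100 were below all 5 control libraries, and that of H99, at 412 CPM, lay among them. DESeq2 called this difference (-0.147, adjusted p 0.0191). Without H99 edgeR called it as well (-0.192, adjusted p 0.00335), together with Stat6 (-0.106, adjusted p 0.0153) and Jak1 (-0.163, adjusted p 0.0382), and the count over all genes went from 21 to 3326. On the ipsilateral side Stat3 averaged 501 ± 14.0 CPM in control and 509.8 ± 21.6 CPM in cKO mice, with an interval of -0.0595 to 0.110.

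Fibroblast markers were measured in the same contralateral libraries. Their 6 genes summed to between 667 and 1198 CPM with a median of 704 in control and to between 803 and 1733 CPM with a median of 1339 in cKO libraries, with overlap. All 6 estimates were higher in cKO mice, with a median log2 difference of 0.808. Of the 6, 5 had an unadjusted p under 0.05 and 0 passed the test. Estimates were also higher for 13 of 13 macrophage markers (median 0.322), 7 of 7 neutrophil markers (0.700), 7 of 7 endothelial markers (0.166), 5 of 5 erythroid markers (0.467) and 7 of 8 skeletal muscle markers (1.32). The skeletal muscle sums, however, had a lower median in cKO than in control libraries. Their highest values were 1832 CPM (H100) in cKO and 410.5 CPM (H62) in control libraries. Of 10 lymphocyte markers 1 was higher (median -0.477). Their sums ran from 4.16 to 16.0 CPM (median 5.40, highest in H96) in control and from 3.28 to 8.18 CPM (median 6.22) in cKO libraries. Here too the medians of the sums ran opposite to the estimates. Of 12 sensory neuron markers 3 were higher (median -0.0262), and 4 had an unadjusted p under 0.05. None of the markers in these lists passed the test. Mouse H99 had the lowest fibroblast, macrophage, neutrophil, lymphocyte, erythroid and skeletal muscle sums of the cKO contralateral libraries and the highest sensory neuron sum, 12139 CPM. The part of these markers in the lower contralateral Stat3, Stat6 and Jak1 values was not tested.

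The interaction asks whether the response to injury differed between genotypes. edgeR called 0 of 10 members and 0% of all genes (0 of 28564, with 2799 at an unadjusted p under 0.05), and DESeq2 and limma-voom called 0 members. All 10 estimates were positive, as for 52.9% of all genes, with a median of 0.101 beside 0.0112. The interaction shares the contralateral libraries with the genotype comparison, so these signs are not a second observation. The same holds for marker signs. Estimates were positive for 0 of 13 macrophage (median -0.344), 0 of 7 neutrophil (-0.707) and 0 of 6 fibroblast markers (-0.781). They were positive for 0 of 7 endothelial (-0.334), 0 of 8 skeletal muscle (-3.70), 6 of 12 sensory neuron and 5 of 10 lymphocyte markers. The largest ratio of response to error was that of Stat3, at 0.180 ± 0.0575 (SE, adjusted p 0.485), followed by Socs2 at 0.171 ± 0.0795 (adjusted p 0.505). Without mouse H99 the Stat3 value was 0.238 with an adjusted p of 0.0459. The 95% interval for Socs3 was -0.289 to 0.680, which includes differences of over 1.5-fold.

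The other genes of the pathway were taken from 8 lists of 74 genes, of which 72 were tested. In control mice 24 were called higher and 6 lower after injury, and in cKO mice 28 and 8, while 0 were called between genotypes or for the interaction. Over all tested genes the shares called higher and lower were 13.8% and 16.0% in control and 16.2% and 15.1% in cKO mice, and the counts of each list are to be read beside these. The median log2 fold changes of the list genes were 0.206 and 0.130, and those of all tested genes were -0.00472 and -0.0296. The genes named from here on with a change of at least 1 on the log2 scale in both genotypes follow the rule given for naming, and the others were chosen after their values were seen.

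Among ligands, 3 of 9 tested gp130 cytokine genes rose in each genotype and 0 fell. Il6, the founding cytokine of the family, went from 0.217 ± 0.0699 to 2.23 ± 0.260 CPM (control mice) and from 0.121 ± 0.0827 to 2.51 ± 0.278 CPM (cKO mice, SD, n = 5), log2 fold changes of 3.33 and 4.34. Clcf1 rose by 1.01 and 0.803 on the log2 scale, and its means were under 3 CPM in each group. Lif did not pass the test in either genotype (adjusted p 0.102 in control and 0.360 in cKO mice), nor did Cntf (0.931 and 0.427).

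Of the 6 gp130 cytokine receptor genes, 0 were called in control mice and 2 were higher in cKO mice. These were Il6st, which encodes gp130 itself (log2 fold change 0.226, adjusted p 0.00719, beside 0.0442 and 0.655 in control mice), and Osmr, the oncostatin M receptor (0.425, adjusted p 0.000118, beside 0.0962 and 0.360). Neither interaction passed the test, as no gene of the lists did. Of 17 other cytokine receptor genes, 4 were higher and 2 lower in control mice, and 5 and 3 in cKO mice, with the lower counts near the shares of all genes. Il4ra, the shared receptor chain of IL-4 and IL-13, rose from 56.5 to 103 CPM (log2 0.872, control mice) and from 49.7 to 102 CPM (1.04, cKO mice). The growth hormone receptor gene Ghr fell by 0.322 and 0.335, and the prolactin receptor gene Prlr fell by 0.378 and 0.502.

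Beside the members, 2 of the 4 other kinase and STAT genes rose in each genotype. Stat2, which serves interferon signals, had log2 fold changes of 0.315 (control) and 0.521 (cKO), and Jak3, a kinase of lymphoid cytokine receptors, had 0.591 and 0.480, from means under 3 CPM. Of 14 other inhibitors, 4 were higher and 3 lower in control mice and 4 and 2 in cKO mice. Ptpn1, a phosphatase that acts on JAK2 and TYK2, rose from 45.1 to 76.2 CPM (log2 0.757, adjusted p 1.31e-10) in control mice, and in cKO mice from 43.8 to 75.8 CPM (0.791, adjusted p 5.40e-11). Its relative Ptpn2 rose by 0.409 and 0.414, and the adaptor gene Sh2b3 by 0.426 and 0.333. Socs1 did not pass the test, with adjusted p-values of 0.0511 and 0.0538.

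STAT3 target genes were the list with the most called members, 10 of 13 tested higher and 0 lower in each genotype, with medians of 0.768 and 0.900. Sprr1a, a small proline-rich protein gene induced in injured neurons, went from 0.577 ± 0.329 to 23.7 ± 3.66 CPM (control mice) and from 0.633 ± 0.265 to 26.0 ± 5.25 CPM (cKO mice, SD, n = 5), log2 fold changes of 5.32 and 5.35. Gfap, an intermediate filament gene of reactive glia, rose by 2.38 and 2.22, and Timp1, a metalloproteinase inhibitor gene, by 2.58 and 1.73. The transcription regulator genes Bcl3 (1.26 and 1.34) and Cebpd (1.11 and 1.11) rose as well. These genes also answer to other factors, and the list was chosen with earlier results of these data known. Of 8 STAT5 targets, 1 was higher and 1 lower in control mice, near the shares of all genes, and 2 and 2 in cKO mice. The members were kept out of these lists. Cish, an inhibitor induced by STAT5, is therefore not counted here (log2 fold changes 1.29 in control and 1.38 in cKO mice). Pim2 fell by 0.493 and 0.368, whereas Pim1, which is also on the STAT3 list, rose by 0.956 and 1.03. Of 6 STAT6 targets, 2 were higher and 0 lower in control mice, and 2 and 1 in cKO mice.

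**Figure D4:**
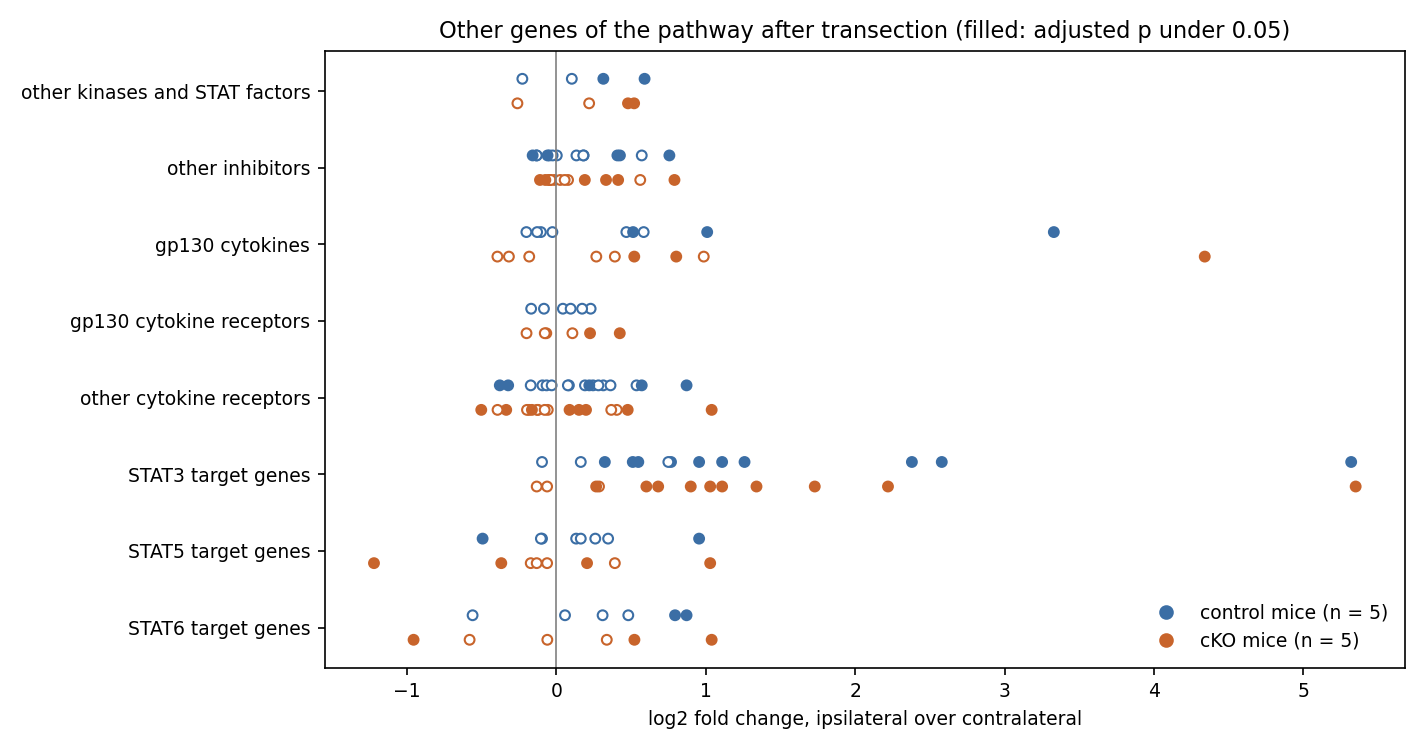
Log2 fold change, ipsilateral over contralateral (horizontal axis), of the tested genes of 8 lists of the pathway in control (blue) and cKO (orange) mice, 5 mice each, filled where the adjusted p was under 0.05. Of the 13 STAT3 target genes tested, 10 are filled and above 0 in each genotype, and Il6 (3.33 and 4.34) stands apart among the gp130 cytokines.

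For 4 members the genes with the most similar pattern over the 20 libraries were listed, by the root mean square (RMS) difference of log2 CPM after centring each gene, among 11832 genes whose mean reached 5 CPM. For Stat3 they were Amer3 (RMS 0.0391), Esyt1 (0.0398) and Hdac9 (0.0402), where the median over all candidates was 0.230. For Jak2 they were Carhsp1 (0.0497), Uap1 (0.0517) and Wrnip1 (0.0548), with a median of 0.289. Socs3 was nearest to Tmem173 (0.220), Tifa (0.234) and Arid5a (0.238), with a median of 0.935, and Cish to Fam210b (0.136), Rhoq (0.137) and Zfp772 (0.141), with a median of 0.697. These distances are descriptive, since all genes share the libraries and their depth. When the 10 responses per mouse were used instead, 1 of the 3 genes was found again for Stat3 and 0 of 3 for Socs3, Cish and Jak2.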

How the data were processed

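A stranded mRNA kit was used, with paired reads of 150 bases, per the labels' protocols. The authors deposited a table of whole-number counts per gene without normalization, 1 column per library. HISAT2, Picard, mm10 and mm39 are named without a role or version, per the submitters' processing notes. The counting program, annotation release and strand setting are not given in the sources used here. An FPKM table was not used, since in 21522 of 21541 genes with at least 1000 counts it equalled CPM divided by a constant (within 0.1%). All columns were assigned by library name, and a shortened mouse number in 1 title was read from it (H61). Symbols came from GENCODE M21 by Ensembl identifier (51487 of 78258 matched, with 98.1% of the counts), as did exon lengths.

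Counts were fitted in R 4.3.3 with edgeR 4.0.16 (filterByExpr with minimum count 10 and total 15, TMM, robust quasi-likelihood F-test) in 1 model of 20 libraries with 4 group means and 5 comparisons. P-values were adjusted over the 28564 tested genes, with calls at an adjusted p under 0.05. Intervals are 95% t intervals, and log2 CPM used a prior count of 2. Within groups, libraries differed beyond counting error (chi-square per degree of freedom 5.14 to 56.0 over 40 pairs), and the spread between mice sets the precision. The statistics were tested on simulated data. Library names carry a number per animal, which ties its 2 libraries. Their deviations from the group means correlated with a median of 0.308 over 10 mice (-0.160 to 0.668, over 0.1 in 8), and a fit with the mouse as replicate block was tried. Further fits used no filter, a filter at mean CPM 1, RLE scaling, DESeq2 1.42.0, limma-voom (limma 3.58.1) with a random effect of mouse, only the libraries compared, a covariate for H61 to H65 against H95 to H100, and leaving out each mouse.

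The members and all lists were chosen with earlier results of these data known. Named were the members, list genes called with a log2 change of at least 1 in both injury comparisons or called in a genotype or interaction comparison, the 3 genes nearest in pattern to Stat3, Socs3, Cish and Jak2, and Ahr and Atf3 as checks. The values of 1 gene of the lists are not reported here. Promoter sequences are RefSeq's on GRCm38.p6.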

Additional observations from a re-analysis of the deposited data

Results flagged for a closer look

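Within groups of 5 values, a library counted as standing apart when its gap to the next one, divided by the range of the group, exceeded 0.71. Of 60 groups tested, 3 held such a library, and chance gives about 3. Stat5b in the control contralateral group was 67.7 CPM in mouse H62 and 59.2 to 61.04 CPM in the other libraries, a ratio of 0.787. Tyk2 in the control contralateral group was 17.4 CPM in mouse H96 and 14.0 to 14.96 CPM in the others, a ratio of 0.717. Tyk2 in the cKO contralateral group was 16.2 CPM in mouse H64 and 13.8 to 14.4 CPM in the others, a ratio of 0.780.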

How the results depend on the processing

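With all mice kept, 369 of the values of single members under the alternatives stayed on the same side of the threshold, and 1 newly passed it. That was Stat3 in the contralateral genotype comparison under DESeq2, which took the count of members from 0 to 1. Leaving out 1 mouse kept 493 values on the same side, 6 newly passed and 1 no longer passed. Members called then ranged from 7 to 8 for injury in control mice, 7 to 9 in cKO mice, 0 to 3 for the contralateral genotype comparison and 0 to 1 for the interaction. The 9 injury calls without H99 added Stat6 (0.0982, adjusted p 0.00943) and Jak1 (0.138, adjusted p 0.0481). No called value changed sign, and 32 values called in neither fit did. With mouse as a replicate block the counts of members stayed at 8, 7 and 0, with 8558, 9015 and 0 genes called in all, and the block changed no call of a member.

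Over all genes the contralateral genotype count of 21 (7 higher, 14 lower) was 1041 with DESeq2 (667 higher, 374 lower), 50 without a filter (20 higher, 30 lower), 45 at a mean CPM of at least 1 (20 higher, 25 lower), 2 with only the libraries compared (1 higher, 1 lower), and between 4 (without H95) and 3326 (without H99) with a mouse left out. The interaction count of 0 was 11 with DESeq2 and 43 without H99. Injury calls in cKO mice, 4632 higher and 4307 lower, were 4537 and 2930 without a filter and 4328 and 2816 with only the libraries compared. Those in control mice, 3956 higher and 4584 lower, were 3738 and 3438 without a filter. With only the libraries compared they were 4566 and 4235, and without H63 they were 3578 and 3254. The cause of these shifts was not tested. With 5 mice a group, the spread between mice limits small differences.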
